A study of Mus musculus with 8 samples.

Results

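Genes that dividing cells switch on were followed across 8 libraries of mouse gastrocnemius, the large calf muscle. The set is 38 genes chosen by symbol as genes of S phase and of G2 and mitosis, with 3 genes of G1 and its exit among them. Of these, 37 were found among the 23008 mouse genes of the deposited table by looking up each Ensembl identifier, and Cdc25c was not analysed here. All 8 samples came from wild-type C57BL/6J mice that received, through the tail vein, AAV9 carrying a construct named GNDM, an epigenome editor. AAV9 is a viral vector that travels in blood and enters muscle. In the 4 samples of the m31 group the construct carried guide m31, directed at Lama1, the laminin alpha-1 gene; in the 4 control samples it carried a non-targeting guide. The mice were injected at 7 weeks of age by the treatment protocol and at 7 to 12 weeks by the design text, and the muscle was taken 11 weeks later. No group without the virus or the editor is among these samples, so what both groups share cannot be seen from the comparison. Whether every library is its own animal is not stated, so a p-value here reflects sample-to-sample spread that may be technical in part.

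A cell that leaves quiescence first makes D and E cyclins, which free E2F factors from the retinoblastoma protein. E2F then switches on the replication genes of S phase, among them the MCM helicase, PCNA and the enzymes that make deoxynucleotides. Later, FOXM1 and MYB complexes switch on the mitotic genes, which the DREAM complex holds silent in resting cells. Adult muscle fibres are post-mitotic. Dividing cells of a muscle sample are therefore sought among its mononuclear cells: satellite cells, fibroblasts, endothelium and leukocytes.

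The labels were checked first. Lama1 stood at 86.5 to 295 normalised reads in the m31 libraries and at 0 to 4.18 in the control libraries. The 86.5 belonged to m31 replicate 4, and the other m31 libraries held at least 209. Lama1 was the 1 gene of 15960 tested that passed limma's test (adjusted p = 0.00372). Reads in genes came to 25157486 to 39210248 per library. Fibre genes marked the tissue in every library, with Myh4, a fast myosin heavy chain, at 1830200 to 2540100 normalised reads. The libraries m31 replicate 4 and control replicate 3 stood apart from the rest of their groups. A list of 16 macrophage genes summed to 10456 and 7377 normalised reads there, against 3206 to 5256 in the other 6. A list of 10 fibrillar matrix genes had sums of 214226 and 61744 there, and of 32114 to 61720 elsewhere. Values without these libraries stand beside the mitotic sums and several of the genes highest in them.

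The promoters of the cell cycle genes carry known short elements, and they are shown here because mitotic and replication genes are described separately. The CHR, or cell cycle genes homology region, was searched as TTTGAA or TTTAAA. The CCAAT box, which NF-Y binds, was searched as CCAAT. The E2F site was searched as TTTGGCGC, TTTCCCGC, TTTGCCGC or TTTCGCGC. Each search covered both strands of the 250 bases before the first listed RefSeq start site (build GRCm38.p6). Promoters were given for 29 of the 38 genes, and no base in them belonged to matches of more than 1 kind of element. In the following windows of 120 bases, matches to any of these elements are in capitals and the remaining bases in lower case; ATTGG and TTCAAA are matches read from the other strand. Relative to the start site, the windows run from -120 to -1 for Top2a, Kif11 and Mcm6. Those of Mki67 and Cenpf run from -200 to -81 and so do not reach the start site. The windows hold no annotated exon. Top2a and Mki67 are mitotic genes with a CHR and several CCAAT boxes. The windows of Cenpf and Kif11 show 1 CHR and 1 CCAAT box each. Cenpf has a further CCAAT box 71 bases before the start site, outside its window. Mcm6 is a replication gene with E2F sites and no CHR.
Top2a, minus strand, chr11:99024190-99024309: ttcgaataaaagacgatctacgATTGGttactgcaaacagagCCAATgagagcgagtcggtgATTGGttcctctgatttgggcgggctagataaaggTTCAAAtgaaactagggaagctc
Mki67, minus strand, chr7:135716460-135716579: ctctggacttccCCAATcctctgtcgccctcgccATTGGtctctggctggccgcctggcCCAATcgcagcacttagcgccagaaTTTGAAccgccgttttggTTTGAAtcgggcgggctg
Cenpf, minus strand, chr1:189688167-189688286: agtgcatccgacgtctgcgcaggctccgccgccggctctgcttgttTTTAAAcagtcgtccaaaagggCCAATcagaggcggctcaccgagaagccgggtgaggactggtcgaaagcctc
Kif11, plus strand, chr19:37376262-37376381: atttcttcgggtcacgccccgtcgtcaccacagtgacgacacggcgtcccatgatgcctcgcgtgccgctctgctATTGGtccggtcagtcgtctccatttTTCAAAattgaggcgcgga
Mcm6, minus strand, chr1:128359706-128359825: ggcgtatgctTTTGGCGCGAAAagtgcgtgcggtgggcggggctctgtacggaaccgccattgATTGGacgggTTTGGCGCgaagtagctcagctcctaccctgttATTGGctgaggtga

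In Top2a the nearest CHR match began 23 bases before the start site, and in Kif11 19 bases before it. A CHR match was present in 11 of 16 promoters of G2/M genes (68.8%) and in 2 of 11 promoters of S phase genes (18.2%), beside 25.5% of all 27025 promoters. A CCAAT box was present in 15 of 16 G2/M promoters (93.8%) and 8 of 11 S phase promoters (72.7%), beside 34.5% of all promoters. E2F letters were found in 1 of 16 G2/M promoters (6.25%) and 4 of 11 S phase promoters (36.4%), beside 1.91% of all. In the further mitotic genes listed by role, CHR letters were in 22 of 56 promoters (39.3%) and E2F letters in 5 (8.93%). In the further replication genes they were in 5 of 29 (17.2%) each. Letters of an element describe the sequence; no binding was measured here.

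No cell cycle gene passed the test between the guides. Of the 37 genes in the table, 28 had a mean of at least 10 normalised reads and entered limma's test, and 0 of them passed in either direction; over all genes 0.00627% were called. With an unadjusted p under 0.05 there were also 0 of the 28, against 6.79% of all genes tested. On the recovered reads edgeR called 0 of the 28 and DESeq2 0 as well, with no adjusted p from DESeq2 for Ccne1, Cdc6 and Plk1. Estimates were positive for 11 genes and negative for 17, with a median log2 difference (m31 minus control) of -0.05, beside 0.01 over all genes tested. They ran from -0.37 for Mki67 to 0.79 for Plk1, with SEs of 0.072 to 0.63. The wide SEs belong to mitotic genes: for Top2a the estimate was 0.46 ± 0.63 (SE, limma adjusted p = 0.913). An interval of that width covers differences of either sign.

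**Figure D1:**
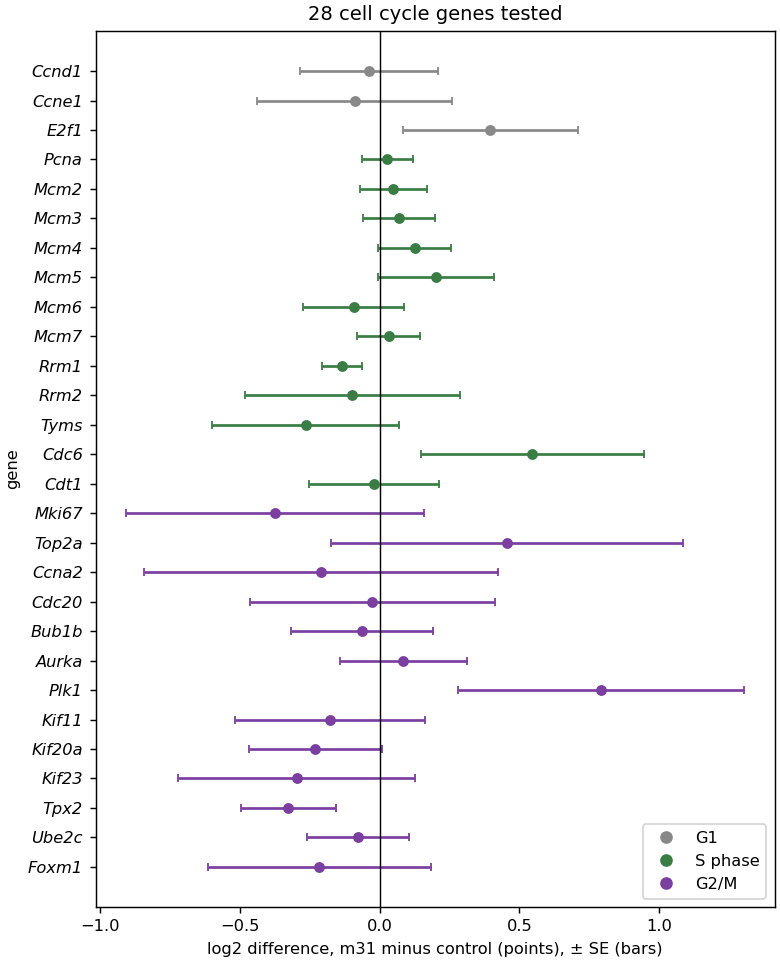
Log2 difference of each of the 28 tested cell cycle genes, m31 minus control (points), with its SE (bars), coloured by phase. S phase genes such as Pcna and Rrm1 have short bars, whereas Top2a, Ccna2 and Plk1 have long ones, and no gene passed the test.

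The mitotic genes varied widely between the libraries of each group. Mki67, the Ki-67 protein that coats mitotic chromosomes and is the usual marker of cycling cells (minus strand of chromosome 7, 135689784 to 135716361 in GENCODE's GRCm38 annotation), had 20.9, 17.1, 12.7 and 69.7 normalised reads across m31 replicates 1 to 4. Across control replicates 1 to 4 it had 36.0, 21.9, 68.6 and 17.3. Thus 1 library of each group held over 68 normalised reads and the other 6 at most 36.0, and the groups overlapped. The counts behind these values were 22, 19, 14 and 87 reads with m31 and 43, 23, 61 and 13 in the controls. The group means were 30.1 ± 26.6 and 36.0 ± 23.1 (SD, n = 4 each), and limma gave a log2 difference of -0.37 ± 0.53 (SE, adjusted p = 0.913). For Mki67 this difference was -0.87 without m31 replicate 4, -0.0034 without control replicate 3 and -0.51 without both.

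Top2a, the topoisomerase that untangles sister chromosomes before they part, showed the same 2 libraries on top. It stood at 19.0, 20.7, 15.47 and 55.3 normalised reads with m31 and at 20.9, 19.1, 50.6 and 4.0 in the controls, the last from 3 reads. Its log2 difference was 0.069 without m31 replicate 4, 0.95 without control replicate 3 and 0.57 without both. Ccna2, the cyclin of S phase and G2, was far above the rest in 1 library alone, with control replicate 3 only narrowly next. Ccna2 stood at 13.3, 3.59, 4.55 and 44.9 with m31 and at 13.4, 8.59, 15.7 and 12.0 in the controls. The log2 difference of Ccna2 was -0.21 ± 0.63 (SE, limma adjusted p = 0.967). It was -0.88 without m31 replicate 4 and -0.77 without both libraries. Kif23, a kinesin of the dividing cell's midzone, was instead highest in control replicate 3, at 50.6 normalised reads against 15.3 to 17.3 in the other control libraries and 9.5 to 26.4 with m31. Its log2 difference was -0.30, and it was 0.10 without control replicate 3 and -0.092 without both libraries. Plk1, the mitotic polo kinase, stood at 10.4, 6.29, 11.8 and 28.8 with m31 and at 9.21, 3.82, 13.5 and 4.0 in the controls. Its log2 difference of 0.79 was 0.41 without m31 replicate 4, 1.09 without control replicate 3 and 0.71 without both.

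**Figure D2:**
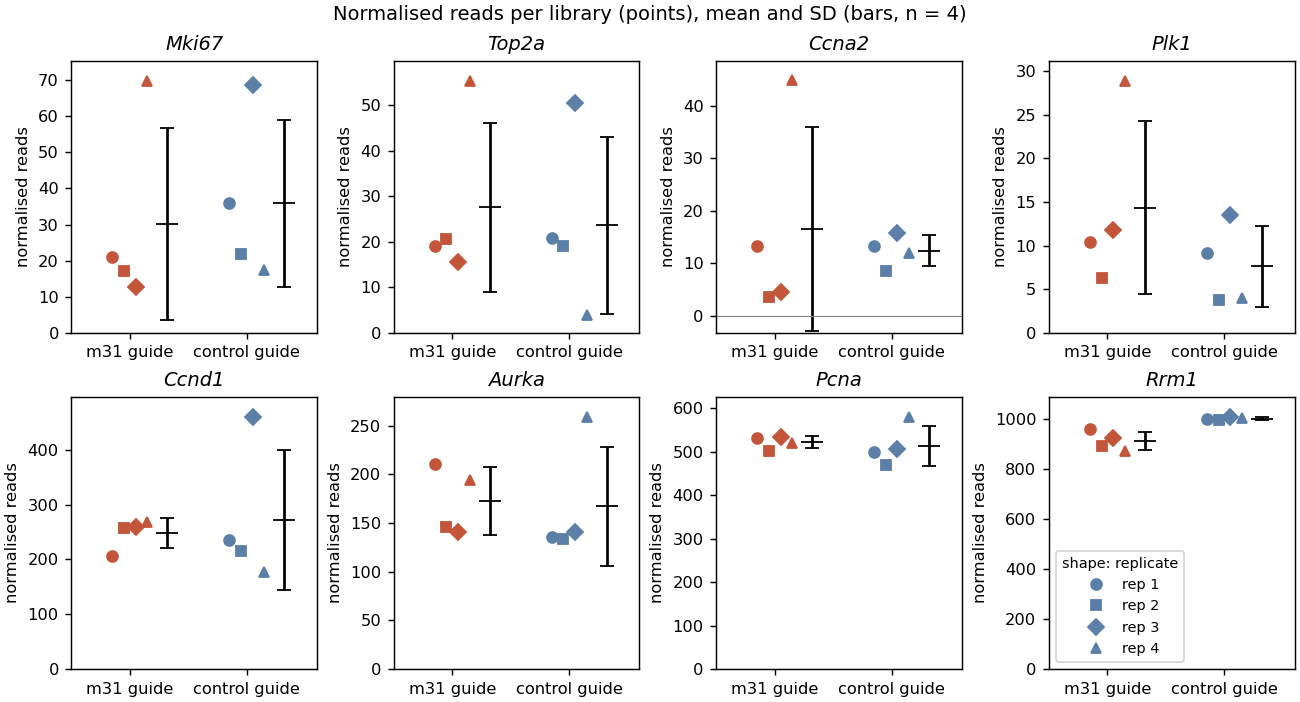
Normalised reads of 8 cell cycle genes per library (points, shape by replicate) with mean and SD of each group (bars, n = 4). For Mki67 and Top2a, m31 replicate 4 and control replicate 3 lie above the other 6 libraries; Aurka is highest in control replicate 4; the groups are apart only for Rrm1, which ran from 872 to 957 with m31 and from 992 to 1005 in the controls.

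The remaining low mitotic genes showed this ordering in part. Among the 21 G2/M genes, 11 were highest in m31 replicate 4 (52.4%), beside 16.5% of all genes tested. Control replicate 3 was highest for 5 of them (23.8%), beside 16.5% of all genes tested. For 12 of the 21 (57.1%), m31 replicate 4 and control replicate 3 were the 2 highest libraries, beside 8.82% of all genes tested and 7.74% of the 10031 genes with a mean of 1 to 50. These 12 were Mki67, Top2a, Ccna2, Ccnb1, Ccnb2, Bub1, Aurkb, Plk1, Cenpe, Cenpf, Kif23 and Foxm1. They cover entry into mitosis (the B cyclins), the spindle checkpoint (Bub1), chromosome attachment (Aurkb, Cenpe and Cenpf) and the transcription factor of the programme (Foxm1). The pair m31 replicate 4 and control replicate 3 was picked after values of these data were seen. Shares of genes with this order, here and for other lists, are therefore descriptions and not tests. Rank alone was counted, so near ties enter: in Ccna2 and Plk1, control replicate 3 stood only narrowly above the next library. Against the median of the other 3 libraries of its group, the median G2/M gene was 1.13 higher in m31 replicate 4 and 0.57 higher in control replicate 3 on the log2(value + 1) scale, beside 0.14 and 0.08 for genes with a mean of 1 to 50 and 0.00 in both for all genes tested. Cenpf, a kinetochore protein, had 7.6, 2.7, 2.73 and 22.4 normalised reads with m31 and 9.21, 6.68, 16.9 and 6.66 in the controls. Aurkb, the kinase of the chromosomal passenger complex, had 5.7, 2.7, 8.19 and 12.8 with m31 and 8.37, 2.86, 16.9 and 1.33 in the controls. In both genes the highest library of each group was again m31 replicate 4 and control replicate 3. Foxm1 had 6.65, 10.8, 10.9 and 24.8 with m31 and 9.21, 15.3, 20.2 and 13.3 in the controls. Kif20a, a kinesin of cytokinesis, spanned only 20.0 to 36.0, and Bub1b, a spindle checkpoint kinase, 17.1 to 36.1. Bub1b was highest in m31 replicate 4, while control replicate 3 at 23.6 lay among the other controls (21.9 to 26.8). For 3 low genes, Cdk1, Birc5 and Cdc20, control replicate 2 stood above control replicate 3; Cdk1, the kinase that drives mitosis, had 15.3 normalised reads there, from 16 reads. Bub1, the lowest gene of all with 25 reads over the 8 libraries, and Ccnb1 had no read in control replicate 4, which allows up to 4.0 normalised reads (3 reads). In m31 replicate 2 and in m31 replicate 3, 1 of these 2 genes also had no read. Counting error alone is large for such genes.

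**Figure D3:**
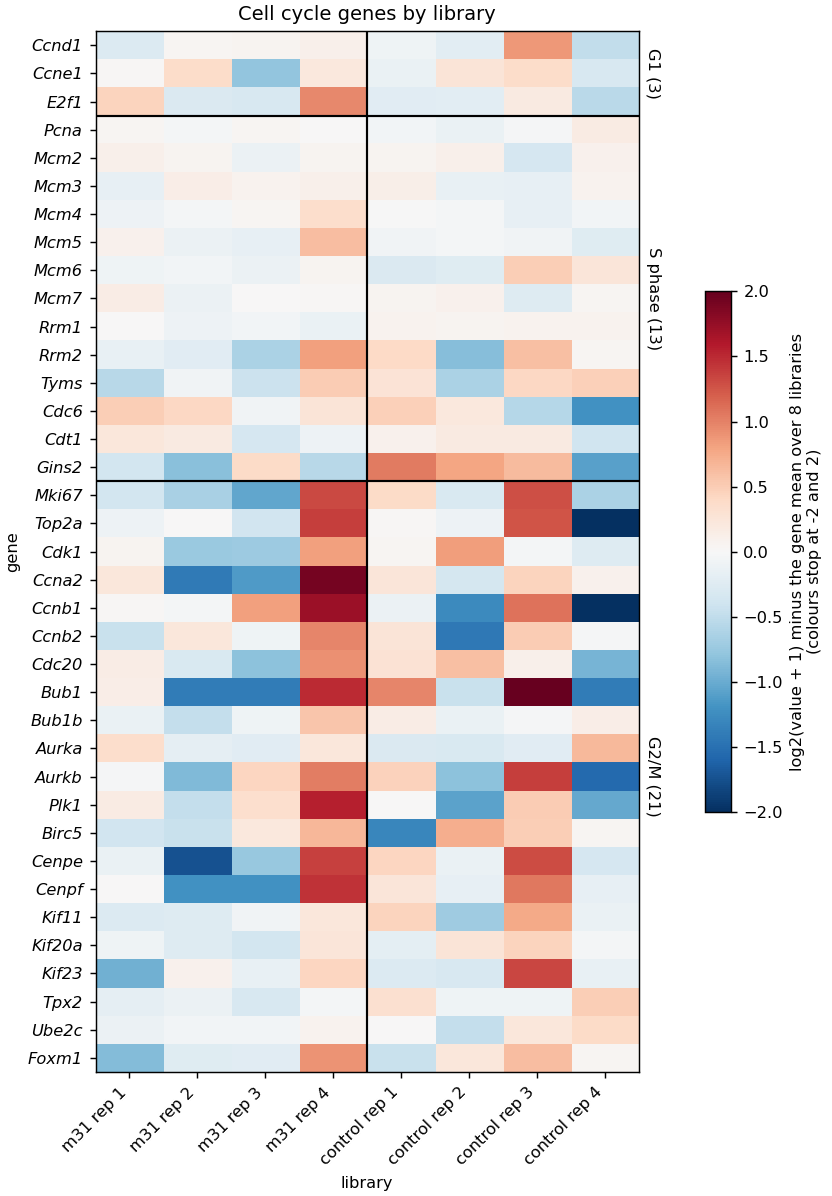
Heat map of the 37 cell cycle genes in the 8 libraries, as log2(value + 1) minus the gene's mean, ordered by phase. The columns of m31 replicate 4 and control replicate 3 are dark red for Mki67, Top2a, Bub1, Cenpe and Cenpf, while the rows of Pcna, the Mcm genes and Rrm1 stay pale.

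Summed per library, the 21 G2/M genes reached 582, 497, 491 and 867 normalised reads in m31 replicates 1 to 4 and 595, 505, 765 and 693 in control replicates 1 to 4. The means were 609 ± 177 and 639 ± 114 (SD, n = 4 each), a log2 ratio of -0.07, so the groups overlapped. Without m31 replicate 4 and control replicate 3 the means were 523 ± 51.1 and 598 ± 94.2 (n = 3 each). Aurka, Tpx2 and Ube2c made up 58.4% of this sum and did not share the ordering, so the sum was also taken over the 18 genes with a mean of at most 50, a split chosen after the values were seen. No G2/M gene had a mean between 33.0 (Mki67) and 83.4 (Tpx2). The 18 genes summed to 477 normalised reads in m31 replicate 4, with an exact 95% counting interval of 439 to 517, and to 418 (377 to 463) in control replicate 3. The other 6 libraries held 170 to 245, the highest being control replicate 1 with an interval of 218 to 275. The 18 genes were split off by their mean after it was seen that Aurka, Tpx2 and Ube2c lacked the shared order. Not all 18 have that order. The gap is therefore a description, and libraries differ by more than counting error. The sum in m31 replicate 4 was 2.66 times the median of the other m31 libraries, and that in control replicate 3 was 1.95 times the median of the other control libraries. As a share of all reads in genes the 18 genes came to 15.7 and 14.2 CPM in these libraries and 5.21 to 7.47 CPM in the others. By guide, the 18-gene sum was 256 ± 148 with m31 and 263 ± 107 in the controls (SD, n = 4 each). Without these libraries it was 182 ± 14.1 and 211 ± 35.4 (n = 3 each). Depth was 37792459 reads in m31 replicate 4 and 26188069 in control replicate 3. In such bulk samples, more dividing cells and more RNA per dividing cell cannot be told apart, and intervals cover counting error only.

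**Figure D4:**
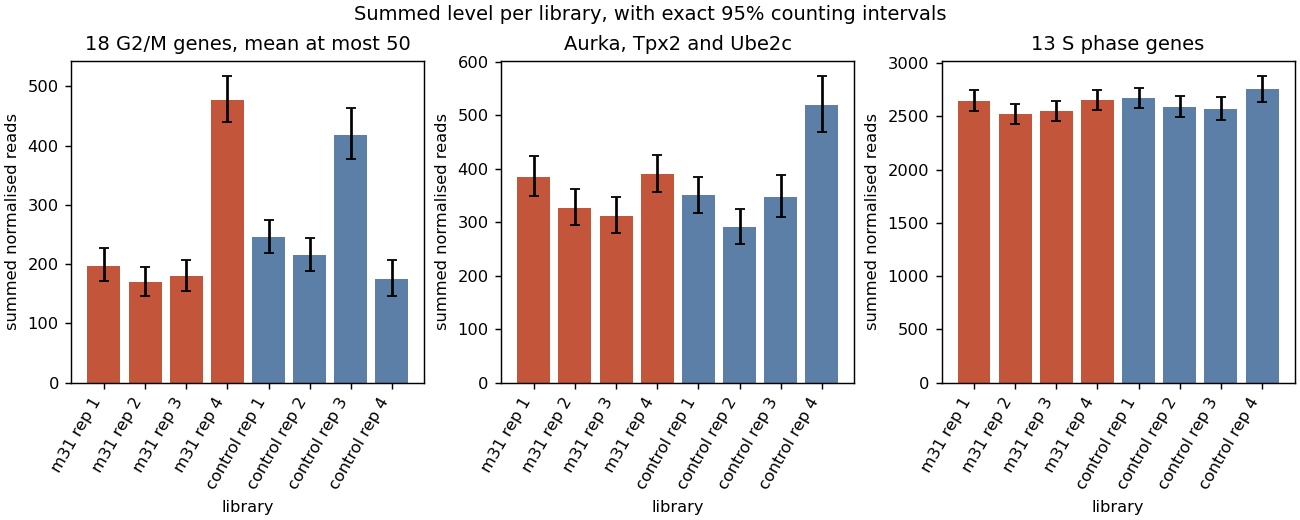
Summed normalised reads per library for 18 low G2/M genes, for Aurka, Tpx2 and Ube2c together, and for 13 S phase genes (bars, red for m31 and blue for control; lines, exact 95% counting intervals). The 18 genes reach 477 and 418 in m31 replicate 4 and control replicate 3 against at most 245 elsewhere, whereas the S phase sum stays between 2521 and 2754.

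Aurka, Ube2c and Tpx2, the most abundant G2/M genes, followed another order. Aurka, the centrosomal kinase of spindle assembly, stood at 211, 146, 140 and 194 normalised reads with m31 and at 136, 134, 140 and 259 in the controls. Its highest library was control replicate 4, where Mki67 and Top2a were at 17.3 and 4.0. Tpx2, the spindle protein that activates Aurora A, was also highest there, at 116 against 65.5 to 103 in the other 7 libraries, and so was Ube2c, the ubiquitin carrier of the anaphase-promoting complex, at 144 against 79.2 to 129. Together the 3 genes summed to 518 normalised reads in control replicate 4 and 290 to 390 in the others. Per kilobase of exon, Aurka averaged 67.1 normalised reads and Ube2c 42.9, against 3.28 for Mki67 and 2.84 for Top2a. Part of the Ube2c exons (592 of 2600 bases) coincides with exons of Tnnc2, the fast troponin C gene on the opposite strand; as the strand setting of the counting is not given in the sources used here, reads in the shared bases cannot be assigned with certainty. The same holds for Kif20a, which shares 29.3% of its exon bases with Cdc23, for Ccnd1, which shares 23.4% with a neighbour, and for Gins2, which shares 67.3% with Gse1. Ccna2 shares 12.49% with Exosc9 on the opposite strand, which averaged 300.8 normalised reads, and Plk1 shares 7.09% with Gm44985.

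The S phase genes, as a sum, were nearly level across all libraries. Their sum was 2646, 2521, 2548 and 2652 normalised reads with m31 and 2669, 2590, 2571 and 2754 in the controls, a coefficient of variation of 2.90% over the 8 libraries. It was 22.2% for all 21 G2/M genes and 46.1% for the 18 low ones, a set split off after the values were seen. Rrm1 and Pcna, with means of 954.7 and 518.2 normalised reads, weigh most in the S phase sum. No sum was taken over the low S phase genes alone, so the level sum does not describe them. Pcna, the sliding clamp of replication, stood at 532, 503, 534 and 521 with m31 and at 499.7, 469, 507 and 579.6 in the controls, a log2 difference of 0.03 ± 0.09 (SE, limma adjusted p = 0.969). Pcna at 216 and Mcm7 at 65.1 normalised reads per kilobase of exon were far above Mki67 in every library, and so was Mcm2 at 45.8. The MCM genes encode the helicase that opens DNA for replication. Mcm2 stood at 340, 328.9, 292 and 330.9 with m31 and at 329.8, 338.6, 252 and 335.8 in the controls, and Mcm7 at 317, 265, 289.5 and 291.7 with m31 and 298.8, 305, 240.5 and 295.8 in the controls. Mcm3 ran from 125 to 154.5 and Mcm4 from 131.5 to 189, with overlapping groups. Their log2 differences were 0.05, 0.03, 0.07 and 0.13, and those of Mcm5 and Mcm6 0.20 and -0.09. Within the controls, Mcm2 and Mcm7 were lowest in control replicate 3, the library with high Mki67, at 252 and 240.5 against at least 329.8 and 295.8 in the others; Mcm6 was highest there, at 164 against 95.4 to 139. Mcm5 stood at 63.3 in m31 replicate 4 and at 34.6 to 43.7 elsewhere, and its log2 difference was 0.032 without that library. Of the exon bases of Mcm7, 12.6% also lie in exons of 2 neighbouring genes or in 2 microRNA hairpins.

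The enzymes of deoxynucleotide supply split the same way. Rrm1, the large subunit of ribonucleotide reductase (plus strand of chromosome 7, 102441695 to 102469771), stood at 957, 890, 922 and 872 normalised reads with m31 and at 998.5, 992, 1005 and 1002 in the controls. It was the 1 tested cell cycle gene whose groups did not overlap, lower with m31, which makes 3.57% of the 28 beside 2.02% of all genes tested (0 were higher with m31, beside 1.84%, and 3.85% of all genes did not overlap in either direction). The difference was small, -0.14 ± 0.07 on the log2(value + 1) scale, and did not pass (limma adjusted p = 0.775). Rrm2, the subunit that cycling cells add in S phase, was highest in m31 replicate 4 and control replicate 3, at 41.7 and 36.0 normalised reads against 12.4 to 30.97 in the others. Tyms, thymidylate synthase, had 28.8 and 27.0 in these libraries, but 27.98 also in control replicate 4. Loading factors of replication did not share the ordering: Cdc6 was highest in m31 replicate 1 at 15.2, Cdt1 was 20.0 to 31.3 throughout, and Gins2 rested on at most 11 reads a library.

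Of the G1 genes, Ccnd1, the cyclin that growth signals induce, stood at 207, 257, 259 and 269 normalised reads with m31 and at 235, 216, 459.7 and 177 in the controls. Control replicate 3 alone was high, and the log2 difference between the groups was -0.04 ± 0.25 (SE, limma adjusted p = 0.981); without control replicate 3 it was 0.25. Ccne1, the cyclin of S phase entry, was low everywhere, at 5.46 to 13.5. E2f1 stood at 37.98, 22.5, 21.8 and 54.5 with m31 and at 23.4, 23.8, 31.5 and 18.7 in the controls, highest in m31 replicate 4 (log2 difference 0.40 ± 0.31, limma adjusted p = 0.842). Without that library the E2f1 difference was 0.14.

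Further genes of the cycle, listed by role, were read from the same fit. Of 154 such genes in the table, 107 were tested, 0 passed, and 4 had an unadjusted p under 0.05 (3.74% beside 6.79% of all genes tested). Their median log2 difference was -0.04. Groups did not overlap for 4 of the 107 (3.74% beside 3.85%): Ccnf was higher with m31 at 26.9 ± 4.79 against 20.0 ± 2.11 normalised reads, and Rfc2, Ccng1 and Tfdp2 were lower, Tfdp2, an E2F partner, at 1060 ± 31.3 against 1252 ± 83.2 (SD, n = 4; log2 difference -0.24, limma adjusted p = 0.652). Among 66 further mitotic genes, 25 (37.9%) were highest in m31 replicate 4 and 17 (25.8%) in control replicate 3, each beside 16.5% of all genes tested. For 20 of the 66 (30.3%) these were the 2 highest libraries, beside 8.82% of all genes tested. As the pair was picked after values were seen, this share too is a description. Their sum did not have this order: it was 5763, 5310, 5570 and 6053 normalised reads with m31 and 6074, 5812, 5547 and 6116 in the controls, with a coefficient of variation of 5.04%. H2az1 and Pttg1, the most abundant of the 66, held 1742 to 2165 and 936 to 1310. Of 43 further replication genes, 8 (18.6%) had this order, and of 18 cyclins, CDKs and their regulators 2 did. In all, 12 of the 66 further mitotic genes had no read in at least 1 library, among them Aspm, Kif14, Pbk and Ttk. Of the 66, 0 were at 0 in m31 replicate 4 and in control replicate 1, 1 in control replicate 3, and 3 to 5 in each of the other 5. Depth was highest in control replicate 1 (39210248 reads in genes) and m31 replicate 4 (37792459), and was 26188069 in control replicate 3. Its part in these zeros was not tested.

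Several genes that restrain the cycle were abundant. Cdkn1b, which encodes p27, averaged 283 normalised reads per kilobase of exon, Cdkn2d (p19) 184, Cdkn2c (p18) 140, Cdkn1c (p57) 116, Cdkn1a (p21) 77.2 and Cdkn2b (p15) 29.7, beside 67.1 for Aurka and 3.28 for Mki67. Of the exon bases of Cdkn1c, 30.65% also lie in exons of Gm44732 on the opposite strand. For Cdkn1a, 7.68% lie in an opposite-strand neighbour. With the strand setting not given, reads in those bases cannot be assigned with certainty. None of the 6 tested CDK inhibitors passed. Cdkn2b had 49.5 ± 14.4 normalised reads with m31 and 33.1 ± 3.28 in the controls (SD, n = 4; log2 difference 0.53, limma adjusted p = 0.731), and Cdkn1a, a p53 target, 240 ± 70.7 and 309 ± 126 (-0.32, adjusted p = 0.874). Cdkn2a, which was too low to be tested, averaged 4.63 per kilobase.

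Markers of some cell types were high in the same libraries as the low mitotic genes, and those of others were not. For 14 of 16 macrophage genes the 2 highest libraries were m31 replicate 4 and control replicate 3; Lyz2 was at 3312 and 2485 normalised reads there and at 959.6 to 1442 in the other 6, Csf1r at 1381 and 986 against 437 to 832. By group the macrophage sum ran from 4334 to 10456 with m31 and from 3206 to 7377 in the controls, and no marker was at 0. The 10 fibroblast and progenitor genes summed to 28235 and 25727 in these libraries against 14955 to 23064, with 7 of 10 in this order. The 12 satellite cell and myoblast genes summed to 6185 and 5724 against 4445 to 5046, with 6 of 12 in this order and Mymx at 0 in 2 other libraries. Myh8, the perinatal myosin heavy chain with a mean of 2262 normalised reads, weighs most in this sum. Pax7, the factor of satellite cells, did not share the order, so the sum does not describe satellite cells alone. T and NK cell genes were scarce, at 119.4 and 68.6 summed normalised reads in these libraries and 29.3 to 57.2 in the others. Of these genes, 2 of 10 were in this order and 6 of 10 were at 0 in at least 1 library. B and plasma cell genes had 2 of 8 in this order and summed to 2187 and 1150 there, while the other 6 libraries held 806 to 1797. Pericyte and smooth muscle genes had 0 of 10 in this order and summed to 25747 and 23199, inside the 23046 to 26684 of the others. The 10 endothelial genes did not share the order in any member: they summed to 13852 in m31 replicate 4 and 14975 in control replicate 3, inside the 13120 to 15930 of the others. Lists of neutrophil, erythroid, Schwann cell, adipocyte and muscle fibre genes also had 0 genes in this order. Among all genes tested, 8.82% had it. The part of any of these cell types in the mitotic reads was not tested, as bulk libraries do not tie a read to a cell.

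**Figure D5:**
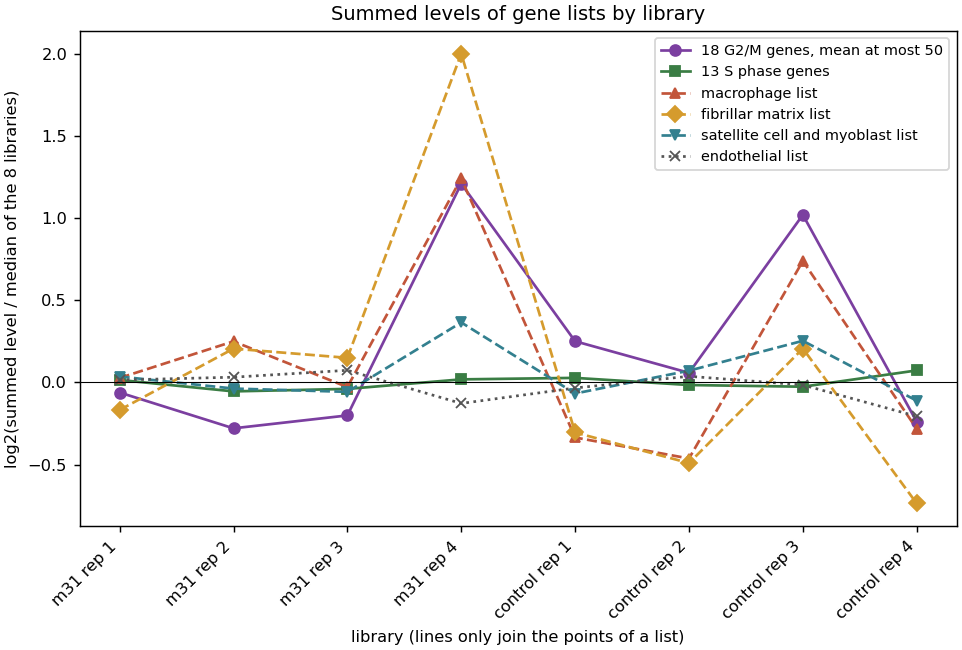
Summed level of 6 gene lists per library, as log2 of the ratio to the median of the 8 libraries; lines only join the points of a list. The 18 low G2/M genes and the macrophage list peak in m31 replicate 4 and control replicate 3, the fibrillar matrix list peaks in m31 replicate 4, and the S phase and endothelial lists stay near 0.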

How the data were processed

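Total RNA was isolated with an RNeasy kit and sequenced from NEBNext Ultra RNA libraries, per the labels' protocols. The deposited table holds normalised read signal: counts per gene divided by 1 size factor per library, by the authors. The submitters' processing notes name STAR, DESeq2 and the human build GRCh38.p12, without versions, yet the gene identifiers belong to mouse. Which counter, strand setting and annotation were used is not given in the sources used here. Of 11 value columns, 8 matched the labels and the other 3 were not used. Reads were recovered from the step of 1 read per library, which made 100% of values whole to within 0.01 read. The 5 construct entries were left out of all tests and gene sums.

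The test was limma 3.58.1 (R 4.3.3) on log2(value + 1) (trend, intercept and group, all 8 libraries) on 15960 genes with a mean of at least 10. P-values were adjusted over all genes tested (Benjamini-Hochberg, threshold 0.05). The script was tested on simulated data. edgeR 4.0.16 and DESeq2 1.42.0 were run on the recovered reads. Sums over genes carry no test, and exact 95% Poisson intervals cover counting error only. Exon lengths and overlaps come from GENCODE M21 and promoters from RefSeq, both on GRCm38. No pair of libraries was alike within sampling noise (chi-square per degree of freedom 13.0 to 52.2 within groups). Alternatives were each library left out, omission of both libraries that stand apart, a replicate block, other filters, pseudocounts, normalisations, weights and tools. The members and all gene lists were chosen with earlier results of these data known. Values in full were foreseen for the 6 most abundant genes of each phase, for genes whose groups did not overlap, and for the CDK inhibitors; up to 4 genes per further list with the smallest unadjusted p could be named, and part of them is printed. Other named genes were chosen after seeing their values.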

Additional observations from a re-analysis of the deposited data

Results flagged for a closer look

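Values of 1 library that lay far from the other 3 of their group, by the gap to the nearest library as a share of the group's range, were sought for 37 genes and 4 sums in both groups. This flagged 8 of 82 groups. Chance flags about 1 in 20 groups, but these are not independent, since the sums hold genes also taken singly and 1 sum was chosen after its values were seen. With m31, replicate 4 was set apart for Mki67 (69.7 normalised reads against 12.7 to 20.9, share 0.857), for Top2a (55.3 against 15.47 to 20.7, share 0.870) and for the sum of the 18 low G2/M genes (477 against 170 to 198, share 0.910). Among the controls, replicate 3 was set apart as high for Kif23 (50.6 against 15.3 to 17.3, share 0.942) and as low for Mcm2 (252 against 329.8 to 339, share 0.898) and Mcm7 (240.5 against 295.8 to 305, share 0.854). Control replicate 4 was set apart as high for Aurka (259 against 134 to 140, share 0.945) and as low for Mcm5 (34.6 against 39.3 to 40.1, share 0.865).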

How the results depend on the processing

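No cell cycle gene was called under any of the 19 alternatives: the smallest adjusted p of a member lay between 0.314 and 0.985. Over all genes, limma called 1, DESeq2 37, and 3 without both m31 replicate 4 and control replicate 3; leaving out 1 library gave 1 to 2. With the replicate number as a block, limma called 1 gene and 0 members; same-numbered libraries did not deviate together (correlations of -0.18 to 0.046), so libraries were not treated as paired. Leaving out 1 library moved the log2 ratio of the G2/M sum between -0.29 and 0.028, and of the S phase sum between -0.044 and -0.010; without Rrm1 the latter was 0.030. The log2 difference changed sign for 18 of 28 genes under some setting, and for 10 under none. Leaving out 1 library in turn, or both, gave Ccnd1 -0.21 to 0.25, Ccne1 -0.23 to 0.16, Pcna -0.014 to 0.087, Mcm2 -0.066 to 0.096, Mcm4 -0.0060 to 0.18, Mcm6 -0.21 to 0.053, Mcm7 -0.049 to 0.076, Rrm2 -0.40 to 0.099, Cdt1 -0.16 to 0.090, Top2a -0.17 to 0.95, Ccna2 -0.88 to 0.23, Cdc20 -0.34 to 0.24, Bub1b -0.28 to 0.084, Aurka -0.041 to 0.31, Kif11 -0.45 to 0.043, Kif23 -0.49 to 0.10, Ube2c -0.25 to 0.037 and Foxm1 -0.55 to 0.036. Without both libraries, Ccnd1 was 0.21, Mcm2 -0.066, Mcm4 -0.0060, Mcm6 0.018, Mcm7 -0.049, Cdt1 0.066 and Aurka -0.041. With library weights, Ccnd1 was 0.093, Mcm2 -0.021, Mcm6 0.085, Mcm7 -0.048 and Ube2c 0.00071. Quantile normalisation gave Mcm7 -0.0019, and recentring on library medians gave Mcm7 -0.0030 and Pcna -0.0072. edgeR gave Ccna2 0.44; DESeq2 gave Ccna2 0.43 and Cdc20 0.0058. Apart from the settings built by leaving libraries out, the cause was not tested. For the 18 low mitotic genes, counts of 0 to 87 reads per library limit each value.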

Other observations

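Of the 12 satellite cell and myoblast genes, 6 had m31 replicate 4 and control replicate 3 as the 2 highest libraries, beside 8.82% of all genes tested. The genes and the 2 libraries named here were chosen after seeing their values. Mymk, the fusion protein myomaker, had 5.7, 3.59, 3.64 and 84.9 normalised reads across the m31 replicates and 3.35, 1.91, 40.5 and 1.33 across the controls. The counts behind them were 106 reads in m31 replicate 4, 36 in control replicate 3 and at most 6 in the others. Myh3, the embryonic myosin heavy chain, was at 344 and 681 in these libraries and at 70.1 to 193 elsewhere, and Myog, which drives myoblast differentiation, at 188 and 189 against 61.3 to 126. Pax7, the factor of satellite cells, was at 134 and 85.4 against 73.3 to 120 and did not share the order. Mymx, another fusion protein, had 28.8 normalised reads in m31 replicate 4, 5.62 in control replicate 3 and 0 to 4.77 elsewhere. Myh8, the perinatal myosin heavy chain, was at 3039 and 2165 in these libraries against 1860 to 2439, so control replicate 3 lay among the others.

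Tnnc2, fast skeletal troponin C, was listed at 20.99 to 42.2 normalised reads, 41.3 per kilobase of exon, while its partners Tnnt3 and Tnni2 stood at 347397 and 138681 per kilobase. In GENCODE M21, 74.0% of the 800 exon bases of Tnnc2 lie in exons of Ube2c on the opposite strand. How reads in shared bases were counted is not given in the sources used here, and the part of Tnnc2 in the Ube2c values was not tested.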
